A study of Mus musculus with 8 samples.

Results

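The aryl hydrocarbon receptor (AHR) genes described here were chosen by name, as the receptor, its partner, its repressor and its textbook target genes, and number 8 of the 35975 genes to which transcripts were matched (Ahr, Arnt, Ahrr, Cyp1a1, Cyp1a2, Cyp1b1, Tiparp and Nqo1). The estimated counts of all transcripts of a gene were summed in each library. The libraries came from the livers of 8 C57BL/6 mice (C57BL/6J in the study's methods), 4 that received normal saline (NS1 to NS4) and 4 that received 4-hydroxyphenylacetic acid (4-HPAA, HP1 to HP4), a phenolic acid made by gut microbes. Both groups had a catheter placed in the portal vein, and the infusion lasted 2 weeks. The comparison asks what the metabolite did to liver transcripts when it arrived by the route it takes from the gut. The labels give neither age nor sex, and transcripts of 4 Y-linked genes summed to between 152 and 180 CPM (counts scaled to the size of the library) in the 8 libraries. No liver of a mouse without surgery was analysed here, and the samples are whole liver.

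AHR is a transcription factor that waits in the cytoplasm with heat shock protein 90 and moves to the nucleus when it binds a ligand, such as dioxins, plant indoles or tryptophan products of gut microbes. There it pairs with ARNT and binds DNA at sites with the core GCGTG. Its best known targets are the cytochrome P450 genes of family 1, which oxidize polycyclic compounds, along with Tiparp and Ahrr, whose proteins curb the receptor, and Nqo1, a quinone reductase that the oxidant sensor NRF2 also drives. In liver, Cyp1a2 is made by hepatocytes around the central vein without any added ligand, whereas Cyp1a1 is nearly silent until a ligand arrives.

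A few stretches of sequence are shown, because Cyp1a1 and Cyp1a2 can share reads and because the promoters of Cyp1a1, Cyp1a2 and Ahrr differ in the core that AHR binds. Cyp1a1 (ENSMUSG00000032315) lies on the plus strand at chr9:57687928-57703824 and Cyp1a2 (ENSMUSG00000032310) on the minus strand at chr9:57676937-57683703 (GRCm38), head to head, with 4225 bases between their outermost annotated starts, 13910 bases to the RefSeq start of Cyp1a1, and 0 annotated genes between the outermost starts. The longest stretch common to both transcripts has 137 bases and sits in coding exon 2 of each, at chr9:57700283-57700419 in Cyp1a1 and at chr9:57682210-57682346 in Cyp1a2, and is given in the sense of the genes:

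Cyp1a1 and Cyp1a2, exon 2: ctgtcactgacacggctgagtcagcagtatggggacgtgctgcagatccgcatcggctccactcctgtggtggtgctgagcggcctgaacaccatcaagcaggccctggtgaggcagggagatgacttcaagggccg

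The sequences just before the RefSeq starts (GRCm38.p6) are given in the direction of transcription, with GCGTG in capitals. The Cyp1a1 window is chr9:57697363-57697612 (plus strand), the Cyp1a2 window chr9:57683704-57683905 (minus strand, shortened to 202 bases so that it holds no annotated transcript) and the Ahrr window chr13:74292332-74292581 (minus strand).

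Cyp1a1: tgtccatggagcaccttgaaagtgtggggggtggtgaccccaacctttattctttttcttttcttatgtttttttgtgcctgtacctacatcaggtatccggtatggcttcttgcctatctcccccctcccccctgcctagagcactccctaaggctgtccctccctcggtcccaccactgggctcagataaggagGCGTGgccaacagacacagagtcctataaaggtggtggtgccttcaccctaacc

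Cyp1a2: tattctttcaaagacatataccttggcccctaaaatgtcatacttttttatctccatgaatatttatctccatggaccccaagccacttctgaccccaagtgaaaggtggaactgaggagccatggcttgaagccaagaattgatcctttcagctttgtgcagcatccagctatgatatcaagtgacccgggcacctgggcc

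Ahrr: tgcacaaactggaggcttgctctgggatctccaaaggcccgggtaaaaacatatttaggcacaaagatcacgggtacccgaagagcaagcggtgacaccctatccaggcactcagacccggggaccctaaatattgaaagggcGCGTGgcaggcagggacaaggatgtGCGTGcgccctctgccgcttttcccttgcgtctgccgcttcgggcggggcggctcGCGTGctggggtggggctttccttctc

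A window was at hand for 7 of the 8 members, all but Ahr. GCGTG, searched on both strands, was present within 250 bases before the start in 5 of the 7, and in 28.2% of 32851 windows of that length before mouse transcription starts. Ahrr held it 3 times, at 107, 82 and 27 bases before the start, and the last of these is also a match to the longer TNGCGTG, which 4.10% of windows hold. Cyp1a1 held it once, 54 bases before the start, as did Arnt at 29, and it was found on the opposite strand at 76 bases in Cyp1b1 and 170 bases in Tiparp. It was not found in the windows of Cyp1a2 and Nqo1. TGACNNNGC, the core to which NRF2 binds and which 10.2% of windows hold, was found 2 times in Arnt and in no other member. These are matches of letters in short windows and no binding was measured.

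The 8 genes spanned a wide range of levels per length. Mean levels in TPM (length-corrected shares of all transcripts) over the 8 libraries were 360.5 for Cyp1a2, 22.1 for Arnt, 13.5 for Ahr, 4.35 for Nqo1, 2.74 for Tiparp, 0.460 for Cyp1a1, 0.397 for Ahrr and 0.139 for Cyp1b1. Cyp1a2 stood 16.3-fold above Arnt and its lowest library, at 200 TPM, was far above the highest Arnt value of 25.8 TPM. Arnt was 1.65-fold above Ahr and higher in 8 of 8 mice, although the ranges touched (17.1 TPM at the lowest for Arnt, 18.0 TPM at the highest for Ahr). Nqo1 and Tiparp likewise overlapped in range and kept their order in all 8 mice. Cyp1a1 and Ahrr were not separable, as Cyp1a1 was the higher in 5 of 8 mice. Within one mouse, Cyp1a2 exceeded Cyp1a1 by between 636-fold and 1615-fold in TPM.

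**Figure D1:**
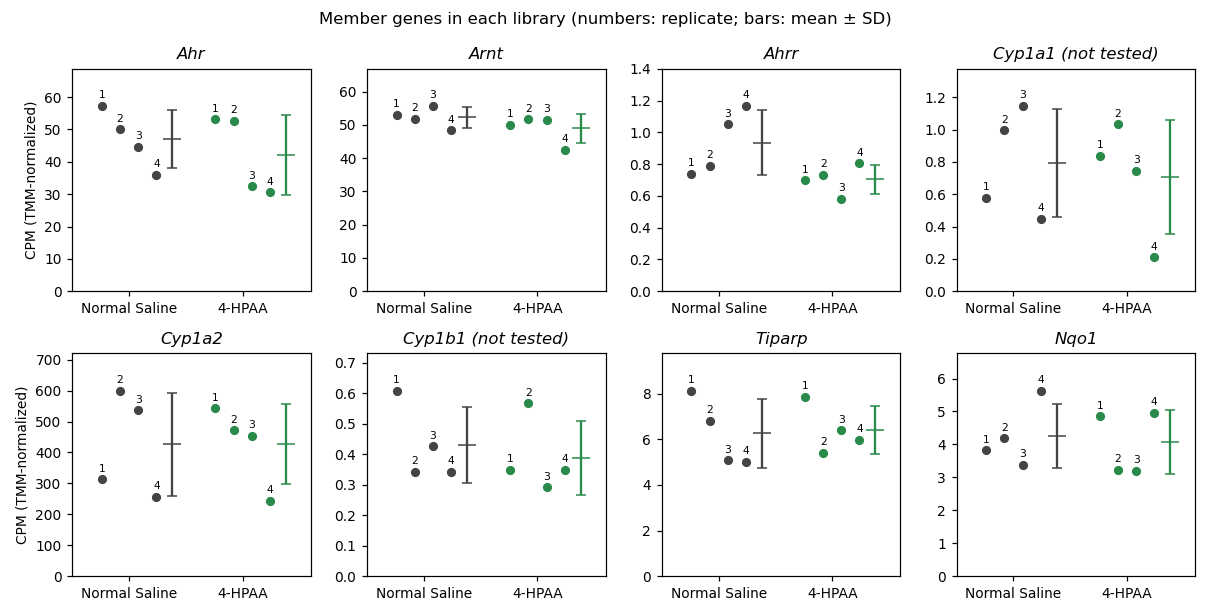
CPM of each member in each library (vertical axis, from 0), with Normal Saline in grey and 4-HPAA in green, the digit giving the replicate and the bar the mean ± SD (n = 4). The groups overlap for every member, and Cyp1a2 is low in NS1, NS4 and HP4.

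No member passed the test for a difference between the groups. Of the 8 genes, 6 reached 10 counts in each of the libraries and entered the edgeR test, and 0 of the 6 passed an adjusted p of 0.05, where 0% of the 12883 genes tested did (225 of them, 1.75%, had an unadjusted p under 0.05, and 0 members). Over the fits without 1 library the unadjusted count ran from 196 of 12916 without NS2 to 340 of 12927 without HP1. None of the 8 separated the groups, and 1.2% of the genes tested had CPM values that did not overlap. At that share none is the usual outcome for 8 genes. Among the 6 members the estimate was higher with 4-HPAA for 2 and lower for 4, with a median log2 fold change of -0.08, and the median size of the change was 0.08 against 0.07 over all genes tested. The edgeR adjusted p was 1.00 for each of the 6.

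Ahr (ENSMUSG00000019256, chr12:35497974-35535038, minus strand), the receptor itself, had 57.3, 50.0, 44.7 and 35.9 CPM in NS1 to NS4 and 53.1, 52.6, 32.4 and 30.6 CPM in HP1 to HP4. The 4-HPAA group split into a pair of high and a pair of low livers, of which the high pair lay within the saline range and the low pair below it. In order of replicate number, Ahr fell from NS1 to NS4 and likewise from HP1 to HP4. The means were 47.0 ± 9.01 (SD, n = 4) and 42.2 ± 12.3 CPM, a log2 fold change of -0.16 (standard error 0.21, 95% interval -0.62 to 0.31, edgeR). Counting error alone would give Ahr a coefficient of variation of 2.74% over the 8 livers, and the measured one was 23.2%. Its SD of log2 CPM over the 8 livers was 0.35, exceeded by 16.2% of the genes tested and by 5.0% of the 500 genes nearest to it in level.

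Arnt (ENSMUSG00000015522, chr3:95434388-95497240, plus strand), the partner that AHR needs to bind DNA, was the steadiest member. It had 53.0, 51.9, 55.8 and 48.3 CPM with saline and 50.0, 51.7, 51.6 and 42.5 CPM with 4-HPAA, and 6 of these 8 values lay within the range from 50.0 to 55.8 CPM. Its log2 fold change was -0.09 (standard error 0.08, 95% interval -0.28 to 0.09, edgeR), the narrowest interval among the members. The SD of log2 CPM over all livers was 0.12, which 76.4% of genes exceeded. A processed pseudogene inside Arnt on the same strand, Gm42672, held 7.25 estimated counts on average.

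Ahrr (ENSMUSG00000021575, chr13:74211118-74292331, minus strand), the repressor that competes with AHR for ARNT, was close to the limit of detection. It had 23, 23, 32 and 34 counts with saline and 20, 22, 18 and 23 counts with 4-HPAA. The saline livers reached higher, and the groups met at 23 counts. The difference was the largest among the members tested, with a log2 fold change of -0.41 (standard error 0.22, 95% interval -0.90 to 0.08, edgeR). Counting error of 20.3% makes up most of its 23.5% coefficient of variation. Most of these counts were not on the coding transcript: 80.9% lay on ENSMUST00000148438, a 5-exon transcript of 5099 bases annotated as a retained intron, while the coding transcript ENSMUST00000022059 had between 2 and 6.41 estimated counts in a library. Of the 31-base words of the retained-intron transcript, the length kallisto matches by default, 1.40% also occur in transcripts of other genes.

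Cyp1a1, the classic inducible target of AHR, had 18, 29, 35 and 13 counts in NS1 to NS4 and 24, 31, 23 and 6 counts in HP1 to HP4. No 4-HPAA liver exceeded the highest saline liver, and the lowest value of all was in HP4. The means were 0.792 ± 0.333 CPM with saline and 0.706 ± 0.352 CPM with 4-HPAA (SD, n = 4). HP4 fell under the minimum of 10 counts, so that Cyp1a1 was not tested. With the filter lowered to a summed count of 10, its log2 fold change was -0.16 with a standard error of 0.45, and without HP4 it was 0.13. Of its 31-base words, 5.87% were shared with Cyp1a2, the far more abundant gene, and reads confined to these words fit both. At this depth the split of Cyp1a1 between its 2 coding transcripts was not resolved, and the share given to ENSMUST00000216433 ran from 0% to 100% by library.

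Cyp1a2, the hepatic enzyme that oxidizes caffeine and aromatic amines, had 313, 600.0, 536 and 256 CPM with saline and 542, 471, 453 and 243 CPM with 4-HPAA. NS1, NS4 and HP4 were low, at 243 to 313 CPM, the other 5 livers lay between 453 and 600.0 CPM, and neither group held one kind only. The means were nearly the same, 426 ± 168 and 427 ± 129 CPM (SD, n = 4). The log2 fold change was 0.0033 (standard error 0.31), and its 95% interval still allowed anything between 0.625-fold and 1.61-fold. Its sign changed in 5 of the 8 fits that left 1 liver out, which spanned -0.18 without NS4 to 0.21 without NS2. Counting error was 0.887%, against a measured coefficient of variation of 32.4%, and 5.32% of the genes tested varied more on the log2 scale.

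Kupffer cell markers were low in the livers low in Cyp1a2, and other markers were so in part. The 5 Kupffer cell markers (Clec4f, Adgre1, Vsig4, Cd5l and Marco, all 5 tested) summed to 83.7, 240.8, 153 and 71.5 CPM in NS1 to NS4 and to 139, 191, 104 and 64.4 CPM in HP1 to HP4. The sum was lowest in the 3 livers in which Cyp1a2 was lowest, and so were 4 of the 5 genes, all but Marco. The sums of stellate cell (84.8 and 98.2 CPM), sinusoidal endothelium (112 and 108 CPM) and leukocyte markers (6.53 and 5.46 CPM) were lowest of the 8 livers in NS4 and HP4. NS1 did not share this, with the highest stellate cell and cholangiocyte sums of the 8 (174 and 45.5 CPM) and 169 CPM for endothelium. The 12 pericentral genes summed to 6459 CPM in NS4 and 7281 CPM in HP4 and to between 9075 and 10110 CPM in the other 6 livers, including NS1 at 9406 CPM. The pericentral enzyme genes Glul, for glutamine synthetase, and Cyp2e1 were lowest in the same pair, at 415 and 512 CPM for Glul against 809 to 965 CPM elsewhere, and at 4420 and 5420 CPM for Cyp2e1 against 6324 to 7233 CPM. The summed hepatocyte markers, mostly albumin, were at 1.29e5 CPM in both NS4 and HP4 and at 1.01e5 to 1.17e5 CPM in the other 6. Of the 6 markers, Alb and Serpina1a were highest in this pair, Cyp2e1 was lowest there, and Apoa1, Ttr and Cps1 did not follow it. The part of these in the variation of Cyp1a2 was not tested, and in whole liver fewer cells of a type and less RNA per cell cannot be told apart. Red blood cell genes summed to 2560 CPM in NS2, against 247 to 376 CPM in the other saline livers, and to 734 CPM in HP4, against 152 to 163 CPM. NS2 also had the highest Cyp1a2 of the 8 livers and HP4 the lowest, so leaving both out raises the log2 fold change by itself. Without these 2 libraries, a choice made after seeing the data, the Cyp1a2 log2 fold change was 0.40 (standard error 0.25), and 0 genes passed. The part of red blood cell genes in this value was not tested.

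Cyp1b1 (ENSMUSG00000024087, chr17:79701537-79715061, minus strand), a family 1 enzyme made mainly outside hepatocytes, had 19, 10, 13 and 10 counts with saline and 10, 17, 9 and 10 counts with 4-HPAA. The 8 values scattered no more than counting error, with a coefficient of variation of 28.4% against 28.6% from counting alone. HP3, at 9 counts, kept it out of the test. At this depth a difference of the size of its standard error, 0.33 on the log2 scale under the lower filter, was not detectable.

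Tiparp (ENSMUSG00000034640, chr3:65528410-65555518, plus strand), which encodes an ADP-ribosyltransferase that limits AHR activity, had 8.14, 6.83, 5.08 and 5.02 CPM with saline and 7.86, 5.40, 6.41 and 5.98 CPM with 4-HPAA. The 4-HPAA livers all lay inside the saline range. Its log2 fold change was 0.03 (standard error 0.18, 95% interval -0.38 to 0.44, edgeR). A pseudogene on the opposite strand, 4931440P22Rik, had 21.6 estimated counts on average and shares 4.66% of the 31-base words of the main Tiparp transcript, and without strand reads of these words cannot be told apart.

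Nqo1 (ENSMUSG00000003849, chr8:107388225-107403206, minus strand) had 3.82, 4.19, 3.38 and 5.63 CPM with saline and 4.85, 3.23, 3.20 and 4.97 CPM with 4-HPAA. It was highest in NS4 and HP4, the same livers in which Cyp1a2 was lowest and the hepatocyte markers Alb and Serpina1a highest. HP1, with 542 CPM of Cyp1a2, was close to HP4 in Nqo1. Over the 8 livers Nqo1 and Cyp1a2 gave a Pearson's r of log2 CPM of -0.53 (exact permutation p = 0.176, adjusted 0.502). Without NS4 and HP4 it was 0.26. The log2 fold change of Nqo1 was -0.07 (standard error 0.21, 95% interval -0.54 to 0.41, edgeR). The gene has a single annotated transcript in the file, so that its count was not divided among isoforms.

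**Figure D2:**
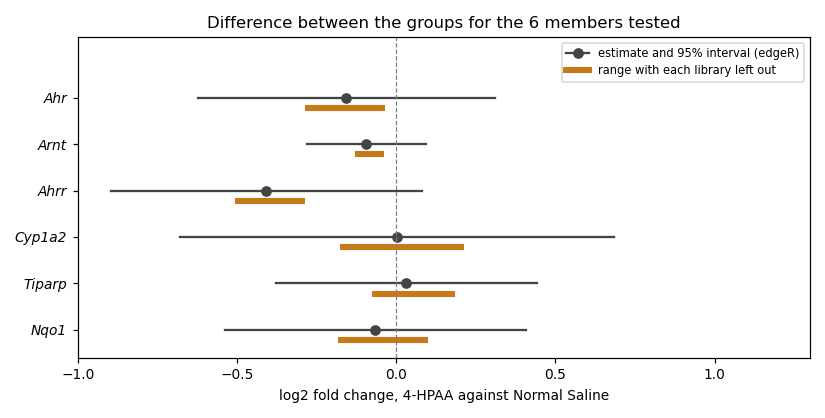
Log2 fold change of 4-HPAA against Normal Saline (horizontal axis) for the 6 members tested, with the edgeR 95% interval in grey and the range over 8 fits without 1 library in orange. Every interval includes 0, and the widest is that of Cyp1a2.

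Did the members vary together from mouse to mouse? Among the 15 pairs of the 6 tested members, Pearson's r of log2 CPM ranged from -0.67 to 0.68 and 0 pairs passed after adjustment over the 15, by Pearson or by Spearman (exact permutation, two-sided). The highest was Arnt with Cyp1a2 (r = 0.68, exact p = 0.0423, adjusted 0.327), which fell to 0.34 without the 2 livers farthest from the median of Arnt. The lowest was Arnt with Nqo1 (r = -0.67, exact p = 0.0494, adjusted 0.327). Ahr and Cyp1a2 gave r = 0.51 with an exact permutation p of 0.201. HP1, HP2 and NS2, next after NS1 in Ahr, had 542, 471 and 600.0 CPM of Cyp1a2, and HP4 was lowest in both genes. NS1 departed from this, with the highest Ahr and one of the low values of Cyp1a2. So did HP3, with 32.4 CPM of Ahr and 453 CPM of Cyp1a2.

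When Cyp1a1 and Cyp1b1 were added despite their low counts, an alternative chosen after the values were seen, 1 of 28 pairs passed. Cyp1a1 and Cyp1a2 rose and fell in the same livers with r = 0.91 (exact permutation p = 0.000794, adjusted 0.0222) and a rho of 0.81 (exact permutation p = 0.0218, adjusted 0.551). The r was 0.82 without the 2 livers farthest from the median of Cyp1a1 (exact p = 0.0431) and 0.93 for deviations from the group means (exact p = 0.0122). The 3 livers low in Cyp1a2 had 18, 13 and 6 counts of Cyp1a1, and the other 5 had 23 to 35. The 3 lowest values of Cyp1a1 were thus those of NS1, NS4 and HP4, and no liver lay between 313 and 453 CPM of Cyp1a2. The part of the shared exon 2 sequence in this relation was not tested.

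**Figure D3:**
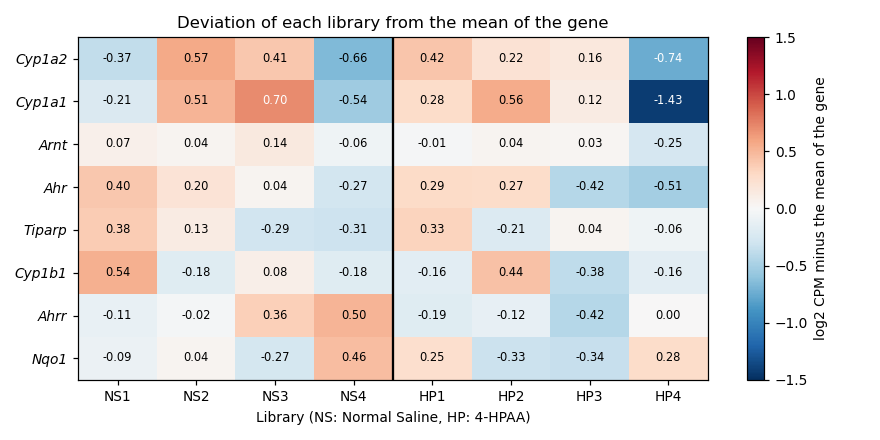
Log2 CPM of each member in each library minus the mean of that gene over the 8 libraries (red above, blue below, numbers in the cells), with Normal Saline left and 4-HPAA right of the line. Cyp1a2 and Cyp1a1 share the low values in NS1, NS4 and HP4. In these, Arnt has 0.07, -0.06 and -0.25 and Nqo1 has -0.09, 0.46 and 0.28, beside 0.25 for Nqo1 in HP1.

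The genes most alike each member over the 8 livers were ranked by Pearson's r of log2 CPM, as a description that shares the libraries and their depth. For Cyp1a2 they were Tbk1 (r = 0.99), Mup9 (0.97), a major urinary protein gene, and Fcgr3 (0.97), an Fc receptor gene of macrophages. For Nqo1 they were Wdr83os (0.99), Serpina1a (0.98), a hepatocyte-secreted protease inhibitor, and Tm4sf4 (0.98). For Ahr they were Dapk1 (0.98), Ifi207 (0.97) and Grin1 (0.96), for Arnt Lrtm1 (0.99), Sned1 (0.97) and Kmt2e (0.96), for Ahrr Ptcd2 (0.99), Tnnc1 (0.93) and Nup37 (0.91), and for Tiparp Adamts15 (0.98), Cpsf4l (0.94) and Pcx (0.92). With 12883 genes to choose from and 8 livers, values of this size are found for each member.

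The share of a gene's counts on its most abundant transcript was compared for the 7 members with at least 2 transcripts above 0, and 0 of 7 passed after adjustment. For Ahr the share was 99.3% ± 0.270 with saline and 99.8% ± 0.0852 with 4-HPAA (SD, n = 4), a difference of 0.442 percentage points in which the groups did not overlap (exact permutation test, two-sided, p = 0.0286, the smallest that 4 against 4 can give, adjusted 0.200). What made it up was 1.05 to 10.4 estimated counts a library on a retained-intron transcript and 6.03 counts on a further transcript in NS2. Arnt placed 75.9% of its counts on ENSMUST00000090804 and the rest on 8 others. The coding transcript of Arnt with the widest spread, ENSMUST00000102749, ranged from 15.7 to 129 counts. Cyp1a2 and Tiparp had 99.8% and 97.7% on 1 transcript.

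**Figure D4:**
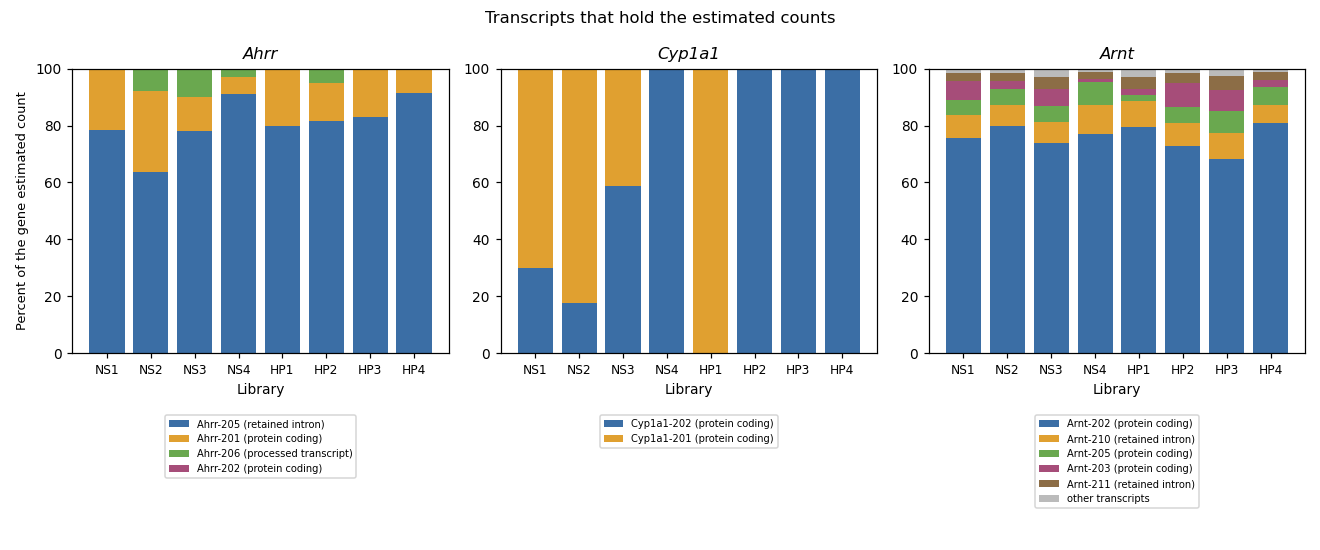
Percent of the estimated count of Ahrr, Cyp1a1 and Arnt on each transcript (stacked bars, 1 per library). Ahrr is mostly a retained-intron transcript in all 8 libraries, Cyp1a1 has from 0% to 100% on the first of its 2 coding transcripts, and Arnt keeps 68.1% to 81.0% on its main transcript.

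Genes that act with the receptor did not separate the groups either, and in each of the lists below 0 genes passed the edgeR test. Of 16 chaperone, coregulator and partner genes, 15 were tested, 6 were higher and 9 lower with 4-HPAA, with a median log2 fold change of -0.01, and the ends of the list were Src (-0.28), Rb1 (-0.27), Cul4b (0.09) and Ep300 (0.10), which encodes a histone acetyltransferase. Of 22 further AHR-responsive genes, 20 were tested, 9 higher and 11 lower, with a median of -0.03. Named from it are G6pc (-0.33, standard error 0.23), which makes glucose from glucose 6-phosphate, Ugt1a9 (0.14, 0.15), a glucuronidation enzyme, and Fgf21 (0.52, 0.77), a liver hormone of fasting. Aldh3a1, a dioxin-induced dehydrogenase, had between 0 and 2 counts and Cyp2s1 between 5 and 24, and neither was tested.

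Of 19 NRF2 targets, the set to which Nqo1 also belongs, 17 were tested, 13 higher and 4 lower, with a median of 0.05 and ends at Cbr1 (-0.16), Gstm1 (-0.11), Abcc4 (0.23) and Maff (0.27). Of 9 genes that make tryptophan-derived ligands, 8 were tested, 4 higher and 4 lower, with a median of -0.01. Kyat1 and Afmid, of the kynurenine route, were at -0.16 and -0.13, and Kmo and Il4i1 at 0.02 and 0.13. Of 12 pericentral genes, all tested, 4 were higher and 8 lower, with a median of -0.04, and 1 had an unadjusted p under 0.05. This was Cyp7a1, the rate-limiting enzyme of bile acid synthesis, with 277 to 423 CPM in the saline livers and 118 to 298 CPM in the 4-HPAA livers (log2 fold change -0.60, standard error 0.25, edgeR adjusted p = 1.00). Lgr5 (-0.26), Rhbg (0.11) and Axin2 (0.34) were the other ends. Of 12 clock genes, 11 were tested, 6 higher and 5 lower, with a median of 0.02 and ends at Per1 (-0.20), Per3 (-0.15), Dbp (0.12) and Nr1d1 (0.24). Of the 4 Y-linked genes, 2 were higher and 2 lower, namely Kdm5d (-0.14), Eif2s3y (-0.08), Uty (0.01) and Ddx3y (0.08).

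**Figure D5:**
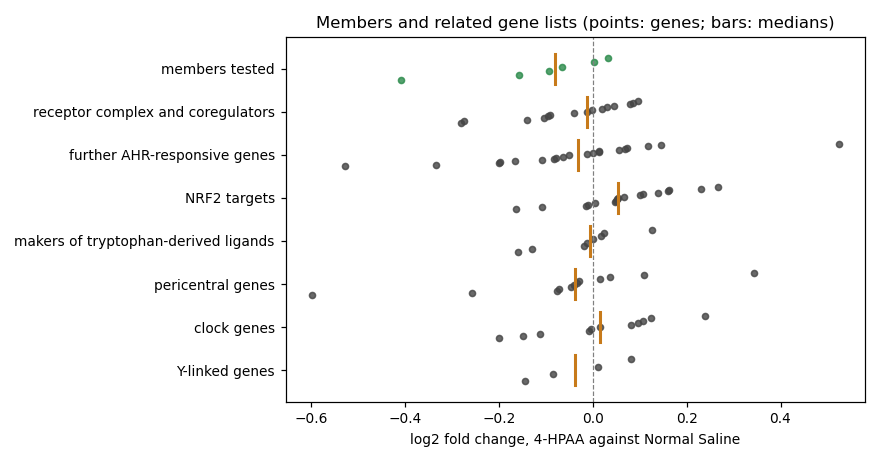
Log2 fold change of 4-HPAA against Normal Saline (horizontal axis) for the 6 members tested (green) and the tested genes of 7 related lists (grey), 1 point per gene, with list medians as orange bars. The medians lie between -0.08 and 0.05, and 0 genes in the plot passed an adjusted p of 0.05.

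The label of liver was checked against 6 hepatocyte markers, all of which passed the count filter and which summed to between 1.01e5 and 1.29e5 CPM. The 5 sinusoidal endothelium and 5 stellate cell markers summed to 108 to 196 and 84.8 to 174 CPM, cholangiocyte markers to 23.4 to 45.5 CPM and leukocyte markers to 5.46 to 11.2 CPM. Of 4 pancreatic acinar cell markers, 3 had at most 3 counts in any library and 1 of these was at 0 in all. The estimated counts of a library totalled from 29559978 to 30673398.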

How the data were processed

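Liver RNA was sequenced as mRNA libraries made with a directional kit. The authors concatenated the flow cells, ran kallisto against transcripts of GRCm38.p6 and deposited estimated counts. There is 1 value per transcript and library, neither normalized nor pooled over mice. Kallisto was run with standard settings, which do not use strand, so reads of overlapping genes on opposite strands cannot be told apart. Of 119414 transcripts, 116728 were matched to 35975 genes of GENCODE M21 and 2686, with 0.703% to 1.06% of the counts, were not. Estimated counts were summed per gene and rounded. Every column was assigned to a sample.

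The 12883 genes that reached 10 counts in all libraries entered edgeR's quasi-likelihood test (version 4.0.16, R 4.3.3) after TMM normalization, adjusted by Benjamini-Hochberg at 0.05. CPM used TMM factors and log2 CPM a prior count of 2. TPM were computed from counts and annotated transcript lengths. Steps were tested on simulated data. The fits were repeated with limma-voom (limma 3.58.1), DESeq2 1.42.0, other filters, RLE or no normalization, single transcripts, the replicate number as a block and each library left out. Tables and figures used pandas 2.3.3 and matplotlib 3.10.9.

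Promoter windows are from RefSeq (GRCm38.p6). All 8 members are named, with the 2 tested genes at each end of every list and the 3 genes most correlated with each member tested. One list gene that this rule would name is not reported here. The members and lists were chosen with earlier results of these data known. Replicate numbers 1 to 4 come from the labels, and same-numbered libraries did not deviate together throughout, so they were not paired. The mice are separate animals, and p-values measure the spread between them.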

Additional observations from a re-analysis of the deposited data

Results flagged for a closer look

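In groups of 4 livers, the highest or lowest value stood apart from the other 3 by more than Dixon's 95% limit in 8 of 60 groups examined, where chance gives about 1 in 20, or 3. The 60 groups share libraries and are not independent.

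In 4 of these the value was a transcript share. Cyp1a1 had 0% of its counts on ENSMUST00000216433 in HP1 and 99.4% to 100% in the other 4-HPAA livers, from 6 to 31 counts in all. Cyp1a2 had 99.94% on its main transcript in NS2 and 99.92% in HP3, above 99.73% to 99.76% and 99.79% to 99.81% in the rest of their groups. Cyp1b1 had 94.8% on its main transcript in HP3, which had 9 counts, and at least 99.99% in the others.

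The other 4 were marker sums. Red blood cell markers summed to 2560 CPM in NS2 and 734 CPM in HP4. Cholangiocyte markers summed to 45.5 CPM in NS1, against 23.4 to 27.1 CPM in the other saline livers. Pancreatic acinar cell markers summed to 0.962 CPM in NS4, against 0.515 to 0.577 CPM, a level of few counts.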

How the results depend on the processing

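Members passing the threshold numbered 0 under each alternative run. Over all genes edgeR called 0, DESeq2 called 2 (Zfp36l2, log2 fold change 0.76, and Ggnbp1, -0.65, named after their values were seen), and the fits that left 1 library out called 0 to 1 (CAAA01147332.1 without HP1). Genes with an unadjusted p under 0.05 numbered 225, but 415 of 17770 with a summed count of 10 or more and 528 of 22597 with no filter, 340 of 12927 without HP1, 336 of 12883 with the replicate block and 351 of 12054 with the most abundant transcript of each gene. They were fewer without NS2 (196 of 12916) and without HP3 (204 of 12924).

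Ahr, Arnt and Ahrr were lower with 4-HPAA in every fit without 1 library (-0.29 to -0.04, -0.13 to -0.04 and -0.51 to -0.29). The other 3 changed sign. Cyp1a2 ranged from -0.18 (without NS4) to 0.21, and was -0.12 without NS1, -0.13, -0.05 and -0.03 without HP1, HP2 and HP3, and -0.0014 with total counts only. Tiparp ranged from -0.076 (without HP1) to 0.18, and was -0.06 without NS3 or NS4. Nqo1 ranged from -0.18 to 0.10 (without NS4), and was 0.03 without HP2 or HP3. Cyp1a1 changed from -0.16 under the lower filter to 0.13 without HP4 and 0.26 without NS2 and HP4, a choice made after seeing the data. Transcript shares changed sign for Arnt (-3.02 to 1.29 points), Cyp1a2 (-0.0040 to 0.0735) and Tiparp (-1.33 to 0.527). The cause was not tested. Adding the 2 low-count members to the correlations, after the data were seen, gave 1 pair where 0 had passed.

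Libraries with the same number correlated, as deviations from the group mean, at 0.04, 0.17, 0.27 and 0.48 across genes. NS2 and NS4 correlated best with the library of their own number, but NS1 did so with HP4 (0.14) and NS3 with HP2 (0.47). The numbers thus do not establish a pairing. With the replicate block edgeR called 0 genes, and Ahr was at -0.18, Arnt -0.10, Ahrr -0.40, Cyp1a2 0.03, Tiparp 0.05 and Nqo1 -0.07. The block took the standard error of Ahr from 0.21 to 0.096 (edgeR quasi-likelihood F test, unadjusted p = 0.0961). It also lowered that of Cyp1a2 from 0.31 to 0.18, Nqo1 from 0.21 to 0.15, Tiparp from 0.18 to 0.14 and Arnt from 0.084 to 0.069. That of Ahrr stayed at 0.22. Depth limits Ahrr, Cyp1a1 and Cyp1b1, at 6 to 35 counts.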
